A study of Mus musculus with 11 samples.

Results

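The IL-1 and IL-18 receptor cluster was examined as 6 neighbouring genes of mouse chromosome 1: Il1r2, Il1r1, Il1rl2, Il1rl1, Il18r1 and Il18rap, in this order and all on the plus strand. Its members were the ATAC-seq peaks that overlapped one of the 6 gene bodies extended by 20 kb on each side, with a peak shared by neighbouring genes counted once. This gave 108 of the 298164 peaks called in 9 libraries. Overlapping peaks (1 bp or more) were merged across libraries, and 29 of the 71400 merged intervals lay in the cluster. The 6 genes were chosen by name out of 21938 protein-coding genes.

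ATAC-seq marks open chromatin, since the transposase Tn5 inserts sequencing adapters where DNA is accessible. CD4 single positive thymocytes (CD4SP, 2 libraries) and NKT thymocytes (2 libraries) came from the thymus, and common lymphoid progenitors (CLP, 3 libraries) and innate lymphoid cell precursors (ILCP, 2 libraries) came from the bone marrow, all of the C57BL/6 strain. NKT cells were sorted with a CD1d tetramer loaded with αGalCer. ILCP were sorted as lineage-negative cells with IL-7Rα, α4β7 and the green reporter of Zbtb16, a knock-in allele that also carries cre, and CLP as lineage-negative IL-7Rα+ cells with intermediate c-Kit and Sca-1 and high Flt3. NKT and ILCP express PLZF, the transcription factor encoded by Zbtb16, and each was compared with the control population of its own tissue, so the comparisons asked where chromatin over the receptor genes differed between a PLZF-expressing type and its control. No treatment was given, and the mice were a few weeks old, with no age in the labels.

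The receptors of this family share an extracellular immunoglobulin fold, and those that signal carry an intracellular TIR domain and act through MyD88, IRAK kinases and NF-κB. Il1r1 encodes the signalling receptor of IL-1, and Il1r2 encodes a decoy that binds IL-1 without signalling. Il1rl2 encodes the receptor of the IL-36 cytokines, Il1rl1 encodes ST2, the receptor of IL-33, and Il18r1 and Il18rap encode the ligand-binding and accessory chains of the IL-18 receptor. IL-18 and IL-33 are known to act on NKT cells and innate lymphoid cells, and IL-18 receptor and ST2 are used as markers of subsets of innate lymphoid cells.

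In mm10, Il1r2 (ENSMUSG00000026073.13) spanned chr1:40074079-40125231, Il1r1 (ENSMUSG00000026072.12) chr1:40225080-40317257 and Il1rl2 (ENSMUSG00000070942.8) chr1:40324610-40367562. Il1rl1 (ENSMUSG00000026069.15) spanned chr1:40429570-40465415, Il18r1 (ENSMUSG00000026070.15) chr1:40465552-40500854 and Il18rap (ENSMUSG00000026068.11) chr1:40515362-40551705. The end of Il1rl1 and the start of Il18r1 were 136 bp apart, and Il18r1 and Il18rap were 14507 bp apart. The extended genes therefore formed 3 separate windows of 91153, 182483 and 162136 bp. Below, an interval is named by its gene and the distance of its midpoint in kb from the start of that gene's reference transcript.

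The labels were checked at the start sites of marker genes. Cd3e and Cd4 had a peak within 1 kb of a start site in all 4 thymic libraries and in no bone marrow library, and Flt3 in all 5 bone marrow libraries, ILCP included, and in no thymic library. Zbtb16 had one in both NKT libraries, both ILCP libraries and CLP replicate 2, so this site did not separate CLP replicate 2 from ILCP. Klrb1c, which encodes NK1.1 in this strain, had none in any library, and Tbx21 had one only in NKT replicate 2. By whole list, 5 of 5 T-lineage genes had a start-site peak in each thymic library and 2 or 3 in each bone marrow library, and 5 of 5 ILCP genes did in both ILCP and both NKT libraries against 4 or 5 in the others. Of 5 CLP genes, 3, 5 and 5 did in the CLP libraries and 3 and 2 in ILCP, but also 1 and 3 in CD4SP and 1 and 2 in NKT. Of 4 NKT genes, 2 and 3 did in NKT and 0 or 1 in every other library. Of 4 myeloid genes 0 or 1 did in every library, and of 3 mast cell genes none. Of 4 genes of type 2 innate lymphoid cells, 3 did in all libraries but CLP replicate 1, which had 1, and Il13 had none in any library. The number of peaks called per library ran from 19343 (CLP replicate 1) to 41535 (CLP replicate 2), and both ILCP libraries, with 26328 and 25771, lay below the 4 thymic libraries (33648 to 38793). Read depth is given by the study's methods only as a range for its libraries together, so absence of a peak from a list says that no call was made there and no more. Scores of the peak caller were used as ranks within a library, given as the upper percent, which is the share of the library's peaks that scored as high or higher, so that a low value is a strong peak.

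The sequences at the middle of 9 intervals are shown first because the comparisons below turn on them: intervals open in all libraries, in 1 cell type, in the thymic libraries, in all types but CD4SP, or in bone marrow alone. Each is the central 200 bp of its merged interval on the plus strand of mm10, and each lies in an intron or between genes. Capitals mark matches, read on either strand, to the letters searched for each factor family. For Runx these were TGTGGT and, as the alternative spelling, TGCGGT. The family of GATA factors was searched with AGATAA, the T-box family with AGGTGTG, and the family of ETS factors with GGAAGT. For TCF and LEF factors they were CTTTGAA and, as the alternative spelling, CTTTGAT. The AP-1 family was searched with TGANTCA, in which N is any base. None of these matches overlapped one another in the printed sequences. The Il1r1 +46.1 (chr1:40271102-40271301, intron 1 of Il1r1) and Il18r1 +9.9 (chr1:40475779-40475978, intron 3 of Il18r1) intervals had a peak in all 9 libraries.
Il1r1 +46.1: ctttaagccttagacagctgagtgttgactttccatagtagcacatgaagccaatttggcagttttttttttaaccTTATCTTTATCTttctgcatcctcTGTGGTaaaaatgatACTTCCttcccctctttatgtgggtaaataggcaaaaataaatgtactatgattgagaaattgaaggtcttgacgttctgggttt
Il18r1 +9.9: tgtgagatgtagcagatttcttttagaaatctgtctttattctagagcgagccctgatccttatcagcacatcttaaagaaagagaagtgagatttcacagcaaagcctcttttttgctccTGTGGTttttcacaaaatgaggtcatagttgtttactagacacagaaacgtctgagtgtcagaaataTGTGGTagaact
The Il18r1 +4.1 interval (chr1:40470056-40470255, intron 1 of Il18r1) had a peak in every NKT, CLP and ILCP library and in neither CD4SP library, and Il1r2 −25.4 (chr1:40059181-40059380, upstream of Il1r2) had one in both NKT libraries alone. The Il1rl2 +58.4 interval (chr1:40383010-40383209, between Il1rl2 and Il1rl1) was open in the 4 thymic libraries alone.
Il18r1 +4.1: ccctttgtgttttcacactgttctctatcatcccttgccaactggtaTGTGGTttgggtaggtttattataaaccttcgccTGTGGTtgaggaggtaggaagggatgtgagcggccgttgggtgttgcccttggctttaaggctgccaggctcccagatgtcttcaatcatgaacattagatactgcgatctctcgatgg
Il1r2 −25.4: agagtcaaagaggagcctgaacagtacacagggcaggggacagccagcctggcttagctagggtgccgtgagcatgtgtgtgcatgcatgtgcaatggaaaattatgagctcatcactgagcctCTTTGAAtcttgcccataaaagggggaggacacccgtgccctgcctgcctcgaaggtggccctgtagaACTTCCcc
Il1rl2 +58.4: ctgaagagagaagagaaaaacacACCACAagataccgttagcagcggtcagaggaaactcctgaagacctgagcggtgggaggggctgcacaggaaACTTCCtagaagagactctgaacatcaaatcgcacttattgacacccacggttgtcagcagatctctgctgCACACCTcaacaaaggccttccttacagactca
Il18rap −10.6 (chr1:40504684-40504883, between Il18r1 and Il18rap) was open in the 3 CLP libraries alone.
Il18rap −10.6: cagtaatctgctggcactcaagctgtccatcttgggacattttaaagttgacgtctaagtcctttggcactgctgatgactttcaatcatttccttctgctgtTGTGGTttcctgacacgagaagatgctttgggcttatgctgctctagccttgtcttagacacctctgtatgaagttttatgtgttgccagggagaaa
Il1r1 +59.3 (chr1:40284265-40284464, intron 2 of Il1r1) and Il1rl1 +2.4 (chr1:40441936-40442135, intron 3 of Il1rl1) were open in both ILCP libraries alone, and Il18rap −13.5 (chr1:40501748-40501947, between Il18r1 and Il18rap) in both ILCP libraries and in CLP replicates 1 and 2.
Il1r1 +59.3: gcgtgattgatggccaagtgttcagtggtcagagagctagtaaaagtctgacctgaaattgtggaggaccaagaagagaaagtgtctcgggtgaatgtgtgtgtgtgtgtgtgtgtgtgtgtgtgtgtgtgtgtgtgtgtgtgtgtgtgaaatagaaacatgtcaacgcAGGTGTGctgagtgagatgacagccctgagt
Il1rl1 +2.4: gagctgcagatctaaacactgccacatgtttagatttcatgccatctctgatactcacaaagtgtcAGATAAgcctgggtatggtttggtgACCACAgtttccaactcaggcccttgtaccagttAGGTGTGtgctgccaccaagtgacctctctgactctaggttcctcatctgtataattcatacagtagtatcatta
Il18rap −13.5: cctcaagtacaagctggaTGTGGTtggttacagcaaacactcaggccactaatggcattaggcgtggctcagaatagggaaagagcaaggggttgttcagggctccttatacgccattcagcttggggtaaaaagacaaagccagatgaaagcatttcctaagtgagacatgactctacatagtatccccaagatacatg

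Runx letters stood in the central 200 bp of 14 of the 29 cluster intervals (48.3%) and in 28.5% of all 71400 intervals. They lay at bases 122–127 and 189–194 of Il18r1 +9.9, at bases 48–53 and 82–87 of Il18r1 +4.1, and once each in Il1r1 +46.1, Il1rl2 +58.4, Il1rl1 +2.4, Il18rap −10.6 and Il18rap −13.5. T-box letters were in 6 of the 29 (20.7%) against 4.26% of all, among them the intervals open in both ILCP libraries and no other, Il1r1 +59.3 and Il1rl1 +2.4. The remaining T-box intervals, Il1rl2 +58.4 among them, had no peak in ILCP. Each was open in thymic libraries alone or in CLP libraries alone, so T-box letters were not confined to intervals open in ILCP. ETS letters were in 11 (37.9%; 24.9% of all), GATA letters in 3 (10.3%; 9.73%), TCF/LEF letters in 3 (10.3%; 10.3%) and AP-1 letters in 2 (6.9%; 6.82%). The E box CANNTG, not capitalised, was in 18 (62.1%; 65.6%). Median GC content of the same bases was 48% in the cluster and 49.5% over all intervals. These matches describe the sequence and were not tested for binding.

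**Figure D1:**
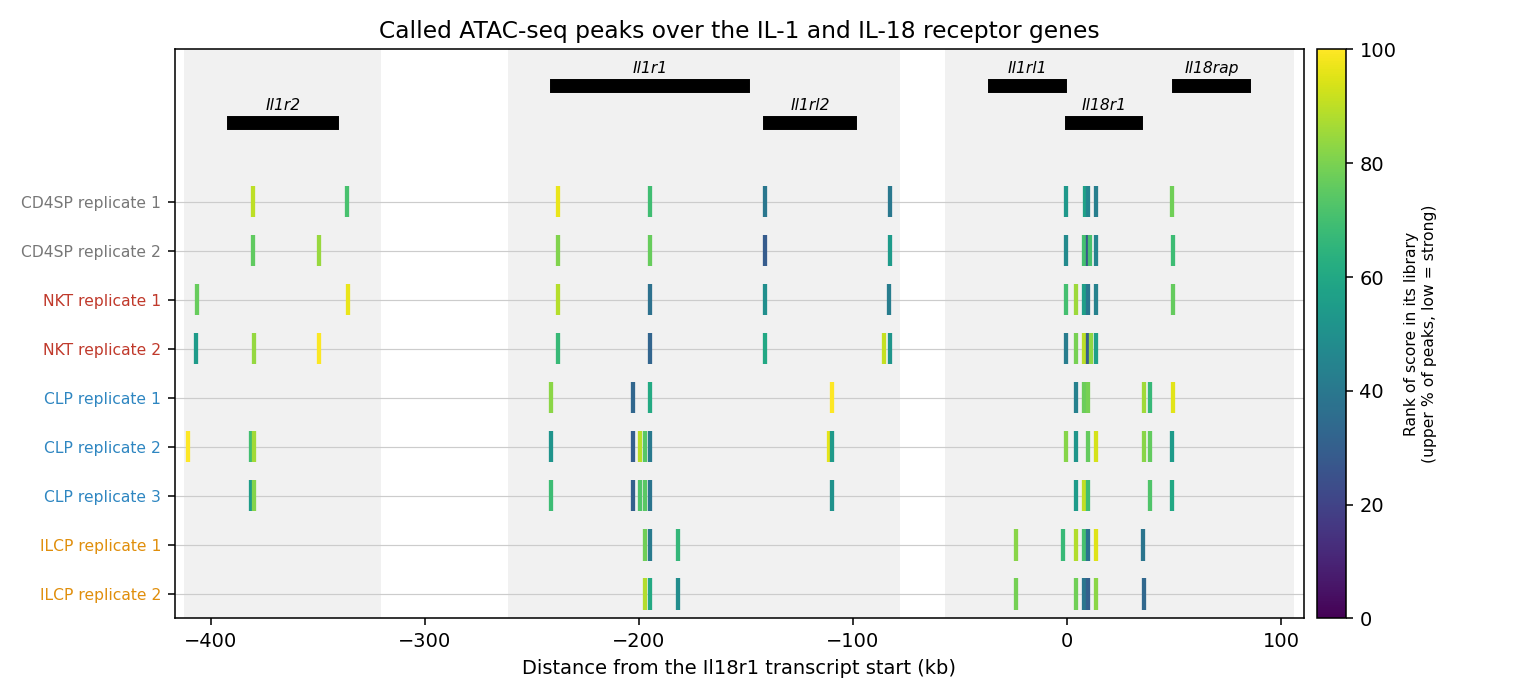
Map of the called peaks (vertical ticks, drawn at the peak midpoint and not at peak width) in the 9 libraries, plotted by distance in kb from the start of the Il18r1 reference transcript. Black bars are the gene bodies, grey shading the 3 windows, and colour the rank of the score in its library in upper percent. Ticks gather in 2 stretches, the first intron of Il1r1 and the first introns of Il18r1, and the ILCP rows are empty over Il1r2 and Il1rl2.

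Over the whole cluster, the 2 CD4SP libraries held 11 and 12 peaks and the 2 NKT libraries 12 and 14. The 3 CLP libraries held 10, 17 and 13 peaks and the 2 ILCP libraries 10 and 9. Both ranges met or overlapped within each tissue. The mean was 13 ± 1.41 (SD, n = 2) in NKT and 11.5 ± 0.707 (SD, n = 2) in CD4SP, a difference of 1.5 peaks (two-sided exact permutation p = 0.667 with a floor of 0.333). It was 9.5 ± 0.707 (SD, n = 2) in ILCP and 13.3 ± 3.51 (SD, n = 3) in CLP, a difference of −3.83 (exact permutation p = 0.3 with a floor of 0.1). The sum of both differences was −2.33 (exact permutation within tissues, p = 0.583 with a floor of 0.0167). With the same number of peaks kept in every library the differences turned to −1 and 0.833. That number was the whole list of CLP replicate 1, so CLP replicates 1, 2 and 3 then held 10, 2 and 2 cluster peaks and ILCP 6 and 5. In the higher-scoring 50% of each list ILCP minus CLP and the sum turned to 1.5, and without CLP replicate 2 the sum was −0.5. Per 10000 called peaks of a library, the cluster held 3.27 and 3.17 in CD4SP, 3.46 and 3.61 in NKT, 5.17, 4.09 and 3.24 in CLP, and 3.8 and 3.49 in ILCP. On that scale NKT lay above CD4SP without overlap (difference 0.316, exact permutation p = 0.333, the smallest this design can give), and ILCP lay within the range of CLP (difference −0.522, exact permutation p = 0.6). No difference in the number of cluster peaks passed a threshold of 0.05, which the comparisons within 1 tissue could not reach.

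The cluster's median peak lay in the lower-scoring 50% of the list in all 9 libraries. The best peak of a library stood at the upper 26.6% (CD4SP replicate 2) to the upper 39.8% (CD4SP replicate 1), and the median peak at the upper 57.2% to the upper 78.5%. The best peak was at Il18r1 +9.9 in CD4SP replicate 2, NKT replicate 2 and both ILCP libraries, at Il1r1 +38.1 in the 3 CLP libraries, at Il1r1 +46.1 in NKT replicate 1 and at the Il1rl2 start in CD4SP replicate 1.

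**Figure D2:**
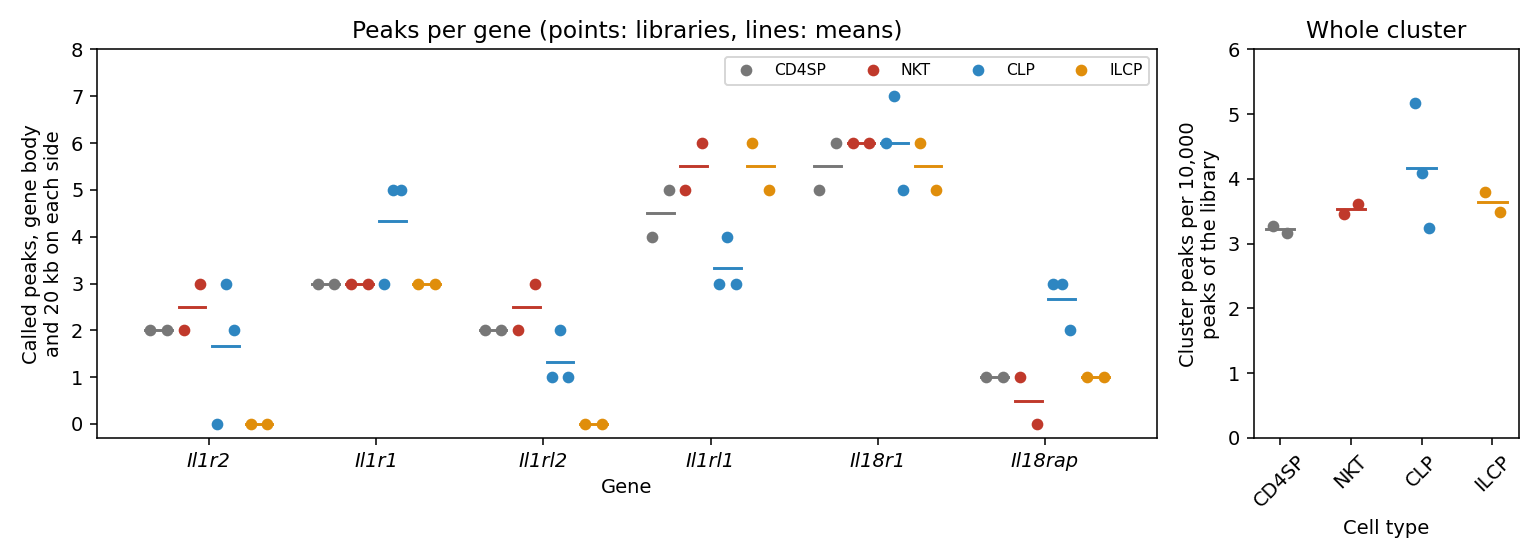
Number of called peaks over each gene body extended by 20 kb (left) and over the whole cluster per 10,000 called peaks of the library (right). Points are libraries and lines are means of the 2 or 3 libraries of a type; Il1rl1 and Il18r1 share peaks because their windows overlap. ILCP points lie at 0 for Il1r2 and Il1rl2.

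Il1r1, the signalling receptor of IL-1, had 3 peaks in each CD4SP, NKT and ILCP library and 3, 5 and 5 in the CLP libraries. In the thymic libraries 1 of the 3 was the peak at the Il1rl2 start, which lies in the extended window; with each peak given to its nearest gene, Il1r1 had 2 peaks in each thymic library and 3 in each ILCP library. The promoter interval (chr1:40224528-40225534), which covered the first start site at 40225080, was open in all 3 CLP libraries, at the upper 82.7, 51.6 and 68.6%, and in no other library. The thymic libraries had no peak there but had a peak at Il1r1 +3.0 in intron 1 (chr1:40227796-40228447), at the upper 96.5 and 81.1% in CD4SP and 89 and 67.3% in NKT. Deeper in intron 1, Il1r1 +38.1 was open in CLP alone and ranked at the upper 33, 30 and 30.1%, within a narrow band in all 3 libraries. Il1r1 +41.6 covered the downstream start sites at 40266586 and 40266657 and was open in CLP replicates 2 and 3 alone. Il1r1 +43.7 was open in CLP replicates 2 and 3 and in both ILCP libraries, while Il1r1 +59.3 in intron 2 (chr1:40283950-40284778) was open in both ILCP libraries alone, at the upper 66.2 and 48.8%.

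The promoter sequence of Il1r1 before its first start site is given with that of Il1rl2, because each was open in 1 tissue. Both are the 200 bases before the RefSeq start on the plus strand of mm10, with capitals as above: chr1:40224880-40225079 for Il1r1 and chr1:40324389-40324588 for Il1rl2. ETS letters lay at bases 125–130 of the Il1r1 promoter, as in 16.7% of 32851 RefSeq promoters of this length, and the Il1rl2 promoter held none of the capitalised motifs.
Il1r1 promoter: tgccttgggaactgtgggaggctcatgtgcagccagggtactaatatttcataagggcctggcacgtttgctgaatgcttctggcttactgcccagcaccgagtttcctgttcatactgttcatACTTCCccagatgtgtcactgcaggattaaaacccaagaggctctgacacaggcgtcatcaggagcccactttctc
Il1rl2 promoter: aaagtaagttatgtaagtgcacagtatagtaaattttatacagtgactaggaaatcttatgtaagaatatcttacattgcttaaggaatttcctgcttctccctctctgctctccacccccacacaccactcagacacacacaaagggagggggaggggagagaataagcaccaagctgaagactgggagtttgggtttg

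The Il1r1 +46.1 interval (chr1:40270556-40271847) was open in all 9 libraries. It stood at the upper 69.5 and 76.6% in CD4SP, at 36.9 and 32.3% in NKT, at 60.6, 40.6 and 38.3% in CLP and at 40.7 and 60.2% in ILCP. NKT ranked above CD4SP without overlap, and ILCP lay between the CLP libraries. The mean was 34.6 ± 3.27 (SD, n = 2) in NKT and 73 ± 5.07 (SD, n = 2) in CD4SP, a difference of −38.4 points (exact permutation p = 0.333, the smallest this design can give). Between ILCP and CLP it was 3.96 points (exact permutation p = 0.7). The thymic difference minus the bone marrow difference was −42.4 points (exact permutation p = 0.117, adjusted 0.117 over the 2 intervals open in all libraries). Of 8 cluster intervals open in all 4 thymic libraries, this 1 had NKT above CD4SP without overlap. That share is no larger than the 19.7% of all such intervals.

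Il1r2, the decoy receptor, had 2 and 2 peaks in CD4SP, 2 and 3 in NKT, 0, 3 and 2 in CLP, and 0 in both ILCP libraries. CLP replicate 1, the smallest list, was the CLP library without a peak there. The Il1r2 −25.4 interval (chr1:40058808-40059752) was specific to NKT, at the upper 76.9 and 54.5%. The start interval (chr1:40084255-40085152) was open in CLP replicates 2 and 3 alone, and Il1r2 +1.2 (chr1:40085451-40086397), which covered the start site at 40085985, was open in both CD4SP libraries, NKT replicate 2 and CLP replicates 2 and 3. Exons of Gm16894 also overlapped both of these intervals, and a peak does not tell the genes apart.

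Il1rl2, the IL-36 receptor, had 2 and 2 peaks in CD4SP, 2 and 3 in NKT, 1, 2 and 1 in CLP, and 0 in both ILCP libraries. Its start interval (chr1:40324206-40325686) was open in the 4 thymic libraries and in no bone marrow library. It ranked at the upper 39.8 and 28.8% in CD4SP and at 49.3 and 60.1% in NKT, so that CD4SP lay above NKT without overlap, by 20.4 points (exact permutation p = 0.333, the smallest this design can give). This was the only such interval among the 8 and the background share was 20.6%. Il1rl2 +58.4 (chr1:40382544-40383675), 58.4 kb from the same start, was also open in the thymic libraries alone, at the upper 40.1 and 54.3% in CD4SP and 42.1 and 52.2% in NKT. There the means differed by −0.051 points. In CLP, all 3 libraries had a peak at Il1rl2 +31.4 in intron 8 (chr1:40355627-40356640), at the upper 99.9, 54 and 50.4%, and no other library did.

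Il1rl1, which encodes ST2, was covered at none of its annotated start sites in any library. The only peaks inside the gene body away from Il18r1 were in ILCP: Il1rl1 +2.4 (chr1:40441713-40442358, mostly intron 3), at the upper 82.4 and 79.2% of the 2 libraries, and Il1rl1 +24.5 in exon 11 (chr1:40463836-40464419), at the upper 67.4% of ILCP replicate 1. No peak was called at Il1rl1 +2.4 in the 6 libraries whose lists were longer than those of ILCP, and the part of list length was not tested. Counted over the extended gene, Il1rl1 had 4 and 5 peaks in CD4SP, 5 and 6 in NKT, 3, 4 and 3 in CLP and 6 and 5 in ILCP, most of which lay in the introns of Il18r1. The 2 bone marrow types did not overlap, with ILCP 2.17 peaks above CLP (exact permutation p = 0.1, the smallest possible), as in 3.66% of all protein-coding genes. The sum of both differences was 3.17 (exact permutation within tissues, p = 0.0333, adjusted 0.2 over the 6 genes), and it was 0 when the same number of peaks was kept in every library. With each peak given to its nearest gene, Il1rl1 held 2 and 1 peaks in ILCP and 0 in the other 7 libraries, and the sum was 1.5 (exact permutation, adjusted p = 0.3).

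Il18r1, the ligand-binding chain of the IL-18 receptor, had peaks in every library: 5 and 6 in CD4SP, 6 and 6 in NKT, 6, 7 and 5 in CLP, and 6 and 5 in ILCP (sum of differences 0, exact permutation p = 1). These counts include the intervals towards Il18rap, and the sum was 1.67 over the gene body without extension, 1.5 with 5 kb and 1 with each peak given to its nearest gene (exact permutation, adjusted p = 0.267, 0.28 and 0.55). Its start interval (chr1:40465172-40466240) reached into the last exon of Il1rl1 and was open in all 4 thymic libraries, at the upper 53.3 and 47.5% in CD4SP and 70 and 42% in NKT, in CLP replicate 2 at the upper 82%, and in no ILCP library. Il18r1 +9.9 (chr1:40475274-40476482) was open in all 9 libraries, at the upper 46 and 26.6% in CD4SP, 39.8 and 28.6% in NKT, 79.5, 76.5 and 68.9% in CLP, and 37.7 and 30.7% in ILCP. The CLP libraries were the 3 lowest, and ILCP lay among the thymic libraries. The mean was 34.2 ± 4.93 (SD, n = 2) in ILCP and 75 ± 5.44 (SD, n = 3) in CLP, a difference of −40.7 points (exact permutation p = 0.1, the smallest this design can give). NKT and CD4SP differed by −2.13 points (exact permutation p = 1), and the thymic difference minus the bone marrow difference was 38.6 points (exact permutation p = 0.117, adjusted 0.117). Of the 3 cluster intervals open in every ILCP and CLP library, this was the 1 with ILCP above CLP without overlap, against 12.1% of all such intervals.

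Il18r1 +4.1 (chr1:40469624-40470686) ranked in the opposite order in bone marrow. It stood at the upper 43.7, 52.1 and 54.6% in CLP, 88.4 and 78.5% in ILCP and 85.5 and 79.6% in NKT, and had no peak in CD4SP. ILCP lay below CLP without overlap, by 33.3 points (exact permutation p = 0.1, the smallest this design can give), as 25.4% of all intervals open in both types did. By rank rather than upper percent the types overlapped: the peak was number 8447, 21641 and 21910 in CLP and number 23265 and 20243 in ILCP. At Il18r1 +9.9, in contrast, the types did not overlap by rank, with numbers 15377, 31772 and 27667 in CLP and 9930 and 7923 in ILCP. Il18r1 +8.2 (chr1:40473431-40475004) had a peak in both libraries of CD4SP, NKT and ILCP and in CLP replicates 1 and 3, and Il18r1 +13.7 (chr1:40479245-40480149) in all libraries but CLP replicates 1 and 3.

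**Figure D3:**
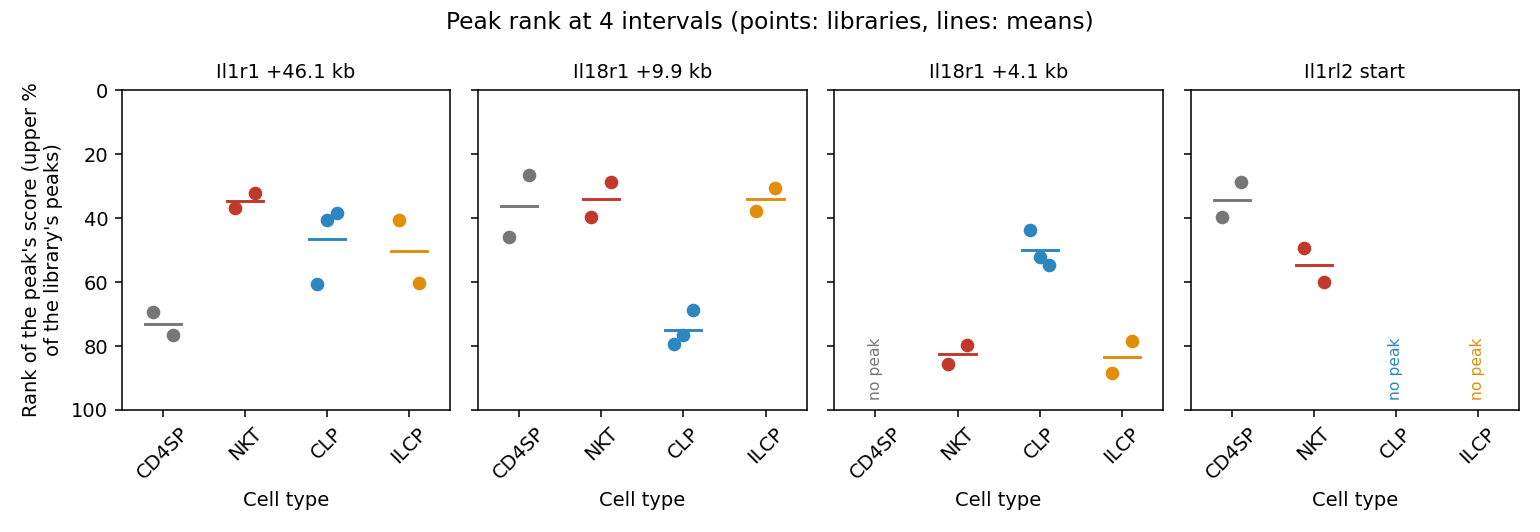
Rank of the peak score at 4 intervals, on a reversed axis of upper percent of the library's peaks (strong peaks at the top). The 4 were picked because compared types did not overlap there, so a separation in each panel follows from the choice. Points are libraries and lines are means of 2 or 3 libraries; "no peak" marks types without a call. NKT stands above CD4SP at Il1r1 +46.1, the 3 CLP libraries stand below all others at Il18r1 +9.9 and above NKT and ILCP at Il18r1 +4.1, and CD4SP stands above NKT at the Il1rl2 start.

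Il18rap, the accessory chain of the IL-18 receptor, had 1 peak in both CD4SP libraries, 1 and 0 in NKT, 3, 3 and 2 in CLP and 1 in both ILCP libraries, so that CLP lay above ILCP without overlap, as for Il1rl2 and in 7.83% of all protein-coding genes (sum of differences −2.17, exact permutation p = 0.1, adjusted 0.3 over the 6 genes). The sum was 0 with the same number of peaks kept in every library, and with each peak given to its nearest gene Il18rap had 1 peak in each CLP library and 0 in both ILCP libraries. Its start interval (chr1:40514851-40515795) was open in both CD4SP libraries at the upper 78.3 and 68.6%, in NKT replicate 1 at 76.4% and in CLP at 95.5, 54.3 and 60.1%, and in no ILCP library. Upstream, Il18rap −10.6 (chr1:40504291-40505275) was open in CLP alone, at the upper 67.1, 75.9 and 72.3%. The neighbouring Il18rap −13.5 (chr1:40501128-40502567) stood at the upper 39 and 33.4% in ILCP and at 85.8 and 82.3% in CLP replicates 1 and 2, with no peak in CLP replicate 3 or the thymus. In ILCP the strongest 2 intervals shared by both libraries, Il18r1 +9.9 and Il18rap −13.5, were thus an intron of Il18r1 and the stretch between Il18r1 and Il18rap.

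**Figure D4:**
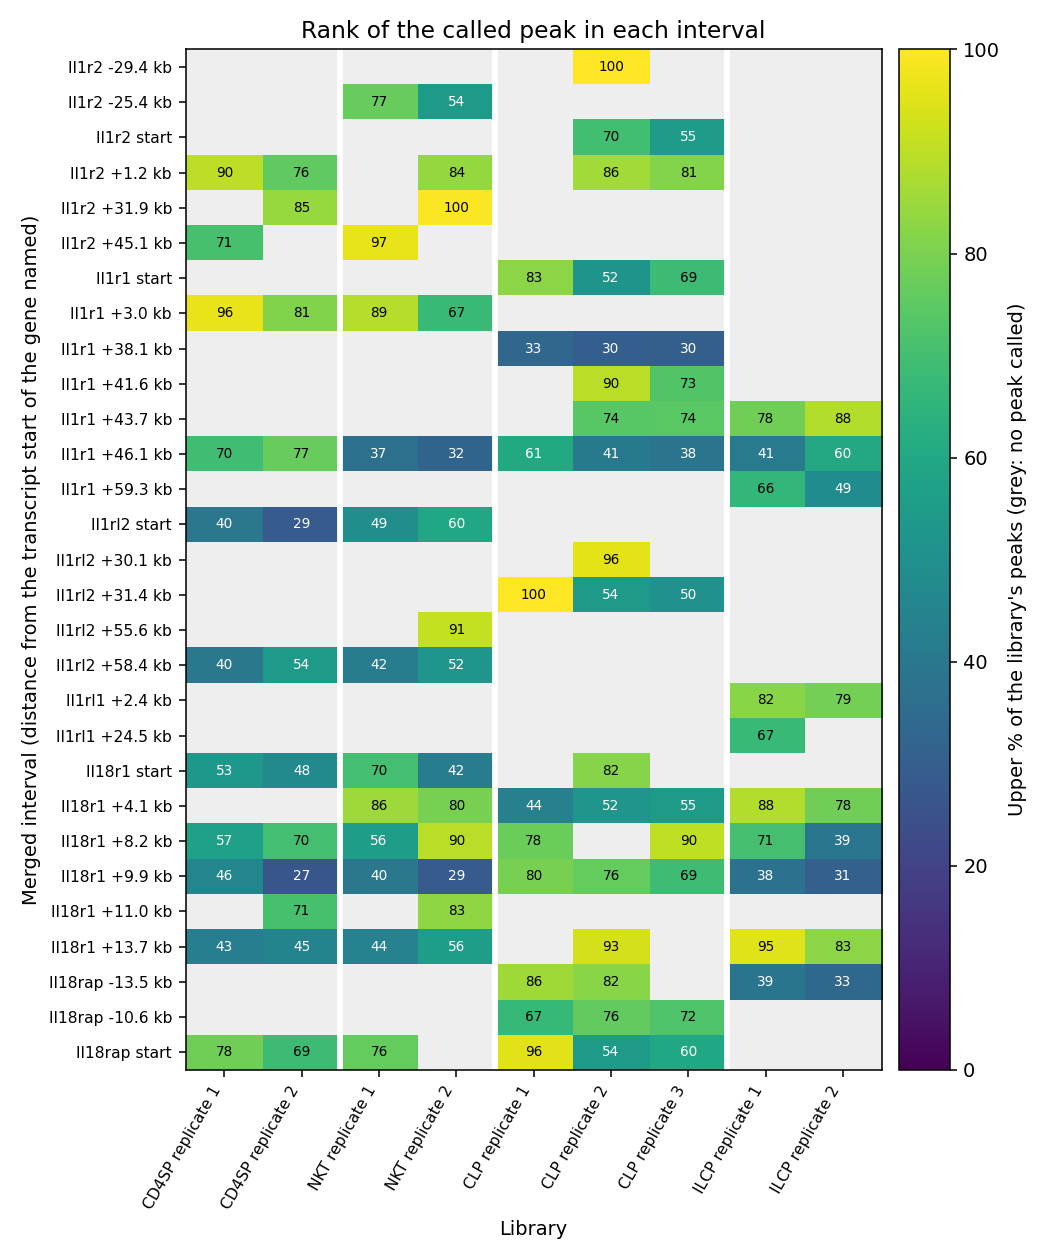
Rank of the called peak in each of the 29 merged intervals (rows, in genome order, named by gene and distance in kb from its transcript start) in the 9 libraries (columns). Numbers and colour give the upper percent of the library's peaks, and grey means that no peak was called. Both Il18r1 +9.9 and Il1r1 +46.1 are filled in all 9 columns, and no start interval is filled in the ILCP columns.

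None of the 6 genes had a start site covered by a peak in either ILCP library, where 40.1 and 38.8% of all protein-coding genes did. In CD4SP 4 genes were covered in each library (47.5 and 51.9% of all genes), in NKT 3 and 3 (47.6 and 52.9%), and in CLP 2, 4 and 3 (36.7, 54.9 and 54.3%). CLP replicate 1, whose list was shorter than those of ILCP, covered the starts of Il1r1 and Il18rap. Whether list length bears on the missing start peaks was not tested.

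Intervals were called specific when open in every library of a type and in none of its control. Of 16 cluster intervals open in a thymic library, 2 were specific to NKT (Il1r2 −25.4 and Il18r1 +4.1), or 12.5% against 6.48% of all intervals tested, and 0 were specific to CD4SP (5.21% of all). Of 21 open in a bone marrow library, 2 were specific to ILCP (Il1r1 +59.3 and Il1rl1 +2.4), or 9.52% against 8.67%, and 5 were specific to CLP (the Il1r1 start, Il1r1 +38.1, Il1rl2 +31.4, Il18rap −10.6 and the Il18rap start), or 23.8% against 8.18%. Without CLP replicate 1, the shortest list, 8 were specific to CLP, and with the same number of peaks kept in every library, or the higher-scoring 50% of each list, 1 was. The number specific to NKT was also 1 under both of these settings and over gene bodies without extension, and the number specific to ILCP was 1 with the same number of peaks in every library. Without either NKT library 1 was specific to CD4SP. The ILCP share lies near its background, and no test was made of the other shares, because neighbouring intervals are not replicates.

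Over all 4 types, 2 of the 29 intervals were open in all 9 libraries (13.3% of all intervals) and 3 in the 4 thymic libraries alone (7.04%): Il1r1 +3.0, the Il1rl2 start and Il1rl2 +58.4. CLP alone had 4 (3.89%) and ILCP alone 2 (3.66%). The pattern of Il18r1 +4.1, open in every library but those of CD4SP, was found in 1 of the 29 (3.45%) and in 0.494% of all intervals. It was read off this interval's own calls, so its rarity adds no evidence.

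Counted per gene, 3 of the 6 genes had at least 1 interval specific to NKT (11.5% of all protein-coding genes), 0 to CD4SP (8.37%), 2 to ILCP (13.8%) and 4 to CLP (16.4%); Il18r1 +4.1 counts for both Il1rl1 and Il18r1, and the 2 intervals specific to CLP in the window of Il18r1 are Il18rap −10.6 and the Il18rap start, which also count for Il18rap. Among 30 other genes of the pathway, 2 had an interval specific to NKT (Il1b and Nfkb1), 2 to CD4SP (Irak2 and Tnfaip3), 3 to ILCP (Il1rn, Tab2 and Nfkb1) and 8 to CLP (Il1b, Il18, Il1rapl2, Irak2, Irak3, Map3k7, Nfkb1 and Nfkbiz). Il1b encodes IL-1β, Il1rn the IL-1 receptor antagonist, Nfkb1 the p105 precursor of NF-κB, and Irak2 and Irak3 members of the IRAK family. As shares these were 6.67, 6.67, 10 and 26.7% of the 30, with a median of 0 intervals a gene in each case and over all genes. Of the 30, 14 had a peak in all 9 libraries (46.7%, against 50.8% of all protein-coding genes), among them Il1rap, the shared accessory chain of the IL-1, IL-33 and IL-36 receptors, Sigirr, an inhibitory member of the family, and the adaptor Myd88.

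The genes outside 1 Mb of the cluster whose peak numbers over the 9 libraries came closest were Dnajc9 and Mrps16 for Il1r1 (summed difference 0) and Lair1 (1), Card10 for Il1rl2 (0) with Ccr1l1 and Mien1 (1), and Xpo5, Rln3 and Tnfsf9 for Il1r2 (1). For Il1rl1 they were Mfsd7a (1), Ikbkb (3) and Suclg2 (4), for Il18rap Sept12, Ints6l and Lims2 (2), and for Il18r1 Bicdl1 and Pfkfb3 (4) and Phc2 (5). Peak numbers are small, and the genes at the same distance, the listed gene included, numbered from 1 (Card10, Mfsd7a and Ikbkb) to 13 (Phc2).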

How the data were processed

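Chromatin accessibility was measured by ATAC-seq with Nextera transposase in 9 libraries of 4 cell types. The authors aligned 50 bp reads to mm10 with bowtie, allowing 2 mismatches, and ran the MACS peak caller library by library, without pooling. The deposited lists give positions and the peak caller's score. MACS version and settings, and whether duplicates were removed or read ends shifted, are not given in the sources used here, and Picard is named in the submitters' processing notes without a role, while HOMER was used for immunoprecipitation tracks. The methods give only a range of read numbers for the libraries together, and depth per library is unknown, so no counting interval could be given. The Runx1 immunoprecipitation library and its input (2 libraries) were not analysed here. Some sequences and a marker list are not reported here.

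Code in Python 3.11.15 with numpy 2.4.6, pandas 2.3.3 and, for plots, matplotlib 3.10.9 merged overlapping peaks, ranked scores within a library, and took genes from GENCODE M21, sequences from the GRCm38.p6 assembly (mm10) and promoter starts from RefSeq. Peak means were compared by exact two-sided permutation of libraries within tissues, with Benjamini-Hochberg adjustment over the 6 genes where stated. The study's methods call the libraries biological replicates, and nothing in the labels says whether they came from separate mice or sorts, so p-values measure the spread between these libraries. All 6 genes were described; intervals were named when open in every library of a type or specific in a comparison, the others being named after their values were seen, and like genes were the 3 with the smallest summed difference in peak numbers, ties broken by correlation. The members, gene lists and motifs were chosen with earlier results of these data known, and the permutation tests of ranks within single intervals were added after their values were seen. The counting code was tested on simulated data. Alternatives covered list length, score, extension, gene assignment and each library left out.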

Additional observations from a re-analysis of the deposited data

How the results depend on the processing

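With the 19343 highest-scoring peaks kept in every library, NKT minus CD4SP became −1 and ILCP minus CLP 0.833 peaks, both reversed. Il1r1 over both tissues became 0.167, also reversed, and Il1r2, Il1rl1 and Il18rap became 0. This cut keeps the whole list of CLP replicate 1 and shortens the lists of all other libraries. In the higher-scoring 50% of each list, NKT minus CD4SP was 0, ILCP minus CLP was 1.5 and the sum over both tissues was 1.5, the latter pair reversed. NKT minus CD4SP was also 0 over gene bodies without extension and with 5 kb. None of these passed a threshold in either form. Intervals specific to NKT went from 2 to 1 with equal lists, the higher-scoring 50% or gene bodies without extension. Those specific to ILCP went from 2 to 1 with equal lists. Those specific to CLP went from 5 to 1 with equal lists or the higher-scoring 50%, and to 3 over 1 kb from a start site. The cause was not tested beyond what each setting removes.

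With each library left out in turn, NKT minus CD4SP ran from 0.5 to 2.5 peaks, ILCP minus CLP from −5.5 to −2 and the sum from −4 to −0.5. Intervals specific to NKT ran from 2 to 3, to CD4SP from 0 to 1 (1 without NKT replicate 1 or NKT replicate 2), to ILCP from 2 to 3 and to CLP from 5 to 8 (8 without CLP replicate 1). Over the genes, no adjusted p passed 0.05 under any setting, but a gene that stands alone at the floor cannot go below 0.1 over 6 genes, so this says nothing about stability. The number of intervals whose upper percents did not overlap between compared types was 4. In the thymus 1 of 8 had NKT above CD4SP (19.7% of all such intervals) and 1 of 8 the reverse (20.6%). In bone marrow 1 of 3 had ILCP above CLP (12.1%) and 1 of 3 the reverse (25.4%). The count was 3 by rank in place of upper percent, and 4 to 8 with a library left out, when fewer libraries had to separate. It was 8 without CD4SP replicate 2 or NKT replicate 1. These alternatives were chosen after the data were seen. With replicate number as a block, NKT minus CD4SP was 1.5, ILCP minus CLP −4 and the sum −2.5. CLP replicate 3 was left out there, as no ILCP library shares its number. So few pairs cannot give a p under 0.05, so this setting could not change a call. The correlation of deviations of same-numbered libraries was 0.18 in the thymus and −0.01 in bone marrow over 71400 intervals, and no label says that a number marks a shared day or batch, so the numbers were not taken as pairs. The unknown depth limits every missing peak.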
